A study of Homo sapiens with 3 samples.

Results

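The genes described here encode the enzymes and carriers of fatty acid oxidation and of ketone body metabolism. They were taken by symbol from a list of 33 names, and all 33 were found among the 61533 genes of the deposited tables. Of the 33 products, 22 work in mitochondria and 7 in peroxisomes, and 4 work elsewhere or in more than 1 compartment. The RNA came from Hep3B, an established human hepatoma line, labelled wild type and grown in DMEM with fetal bovine serum. One culture was kept at 1% oxygen and given oxamate sodium, which blocks lactate dehydrogenase. Another was kept at 1% oxygen alone (hypoxia) and the last at 20% oxygen (normoxia). A time of 48 hours is stated for the oxamate culture, and no oxamate dose or separate time for the other cultures was found in the sources used here. Each condition has 1 library of polyadenylated RNA, so the differences have no replicate check and none was tested. All values describe these 3 libraries of 1 cell line.

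Fatty acids enter mitochondria as carnitine esters and are shortened there in repeated rounds of dehydrogenation, hydration, a further dehydrogenation and thiolysis, with electrons passed through the electron transfer flavoproteins to the respiratory chain. Peroxisomes shorten very long, branched and bile acid chains with their own oxidases and hand over medium-length products. The liver turns the resulting acetyl-CoA into ketone bodies, and hepatocytes are a main site of both pathways.

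The libraries held 24826365 fragments in hypoxia with oxamate, 26309340 in hypoxia and 27412147 in normoxia. Levels are given in FPKM, which corrects fragment counts for the length of a gene's exons and for a library size. The size implied by the deposited values was not the fragment total. It was 1.02 times that total in hypoxia with oxamate, 1.06 times in hypoxia and 0.938 times in normoxia. FPKM levels and their sums depend on this scaling. Ratios were computed from whole fragments after scaling with trimmed mean of M values, and the ranges beside them are 95% intervals that cover counting error only. Without molecular identifiers, fragments cannot be taken as independent molecules. A gene entered a comparison with at least 50 fragments in its higher library, and it was counted as higher or lower at a ratio of 2-fold or more. All 12 listed targets of the hypoxia-inducible factors were counted as higher in hypoxia than in normoxia, beside 10.8% of all genes. CA9 was among them, at 27.6-fold (23.7 to 32.3). The list was chosen with earlier results of these data known, so it is no independent check of the labels. All 10 listed hepatocyte markers had fragments in every library.

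Most members had a lower value at 1% oxygen, and nearly all had a still lower value with oxamate, though few differences reached 2-fold. In hypoxia against normoxia, 22 of the 30 members that passed the minimum had a lower value and 8 a higher one. Of the 22, HADHA, ACOX3 and HSD17B4 turned to slightly higher under scaling to total fragments, and ACADM also under scaling to the upper quartile. A lower value was found for 29 of 30 in hypoxia with oxamate against hypoxia, beside 51.2% of all genes. The summed level of the 33 members was 348 FPKM in hypoxia with oxamate, 455 FPKM in hypoxia and 489 FPKM in normoxia. These sums rest on the scaling of the deposited values and were not computed under another scaling. Both comparisons use the hypoxia library, so an error in that library would enter both, in opposite directions. In bulk RNA of this kind, fewer cells of a type and less RNA per cell cannot be told apart.

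**Figure D1:**
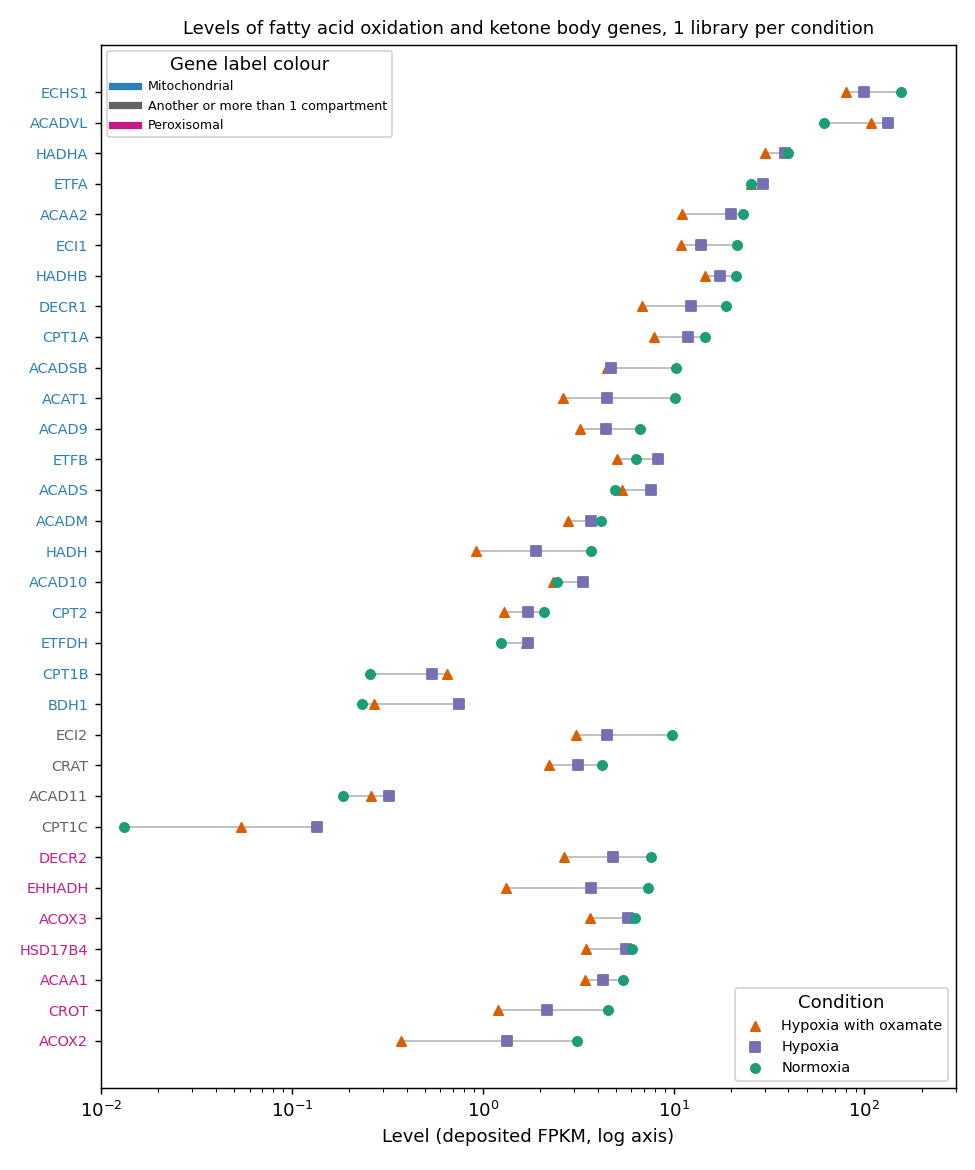
Level of each member in FPKM on a log axis, grouped by compartment and ordered by the normoxia level, with 1 point per library for hypoxia with oxamate, hypoxia and normoxia. ACADVL stands highest at 1% oxygen, with 108 FPKM in hypoxia with oxamate and 133 FPKM in hypoxia, against 61.4 FPKM in normoxia, and ECHS1 highest in normoxia with 156 FPKM; ACADL, listed at 0 in every library, is not drawn.

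Counted by size, 3 members were higher in hypoxia than in normoxia (ACADVL, BDH1 and CPT1B) and 5 were lower (CROT, ACAT1, ACOX2, ACADSB and ECI2). Among the 13549 genes that passed the minimum, 10.8% were counted as higher and 8.04% as lower. The 3 higher of 30 are close to the background share, and the 5 lower are a larger share than the background. That excess did not hold under every setting. Only 1 lower member was counted with the upper quartile, with FPKM plus 1 and where the whole interval had to lie past 2-fold, a smaller share than the backgrounds of 5.43%, 4.29% and 4.91%, and 2 were counted under total fragments, beside 5.54%. The median log2 ratio of the members was -0.28, beside -0.11 for all genes. Of all genes, 56.7% had a value below 0, and of protein-coding genes 60.4%. The split of all genes moved with the scaling, with 1468 higher and 1090 lower as reported, but 1775 higher and 751 lower when libraries were scaled to total fragments and 1796 higher and 736 lower with the upper quartile. These scalings raise every log2 ratio by 0.16 and 0.17, and leave 3 members higher with 2 and 1 lower.

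In hypoxia with oxamate against hypoxia, no member was counted as higher and 4 were lower, namely EHHADH, HADH, BDH1 and ACOX2. The background was 5.92% higher and 5.08% lower among 13733 genes, so the lower members exceed the background share and the higher ones fall below it. The direction was more uniform than the count, with a median log2 ratio of -0.51 for the members and -0.01 for all genes. Only CPT1B, the muscle form of the carnitine gate, had a higher value with oxamate among the 30. Its ratio of 1.20 (0.834 to 1.72) was within counting error. An interval wholly below 1 was found for 27 of the 30.

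In hypoxia with oxamate against normoxia, 1 member (CPT1B) was counted as higher and 11 were lower. The lower ones were CROT, ACAT1, DECR1, EHHADH, HADH, ACAA2, ACOX2, ACAD9, ACADSB, ECI2 and DECR2. The background was 15.4% higher and 15.3% lower among 13597 genes, so the lower members are a larger share than the background and the higher one a smaller share. Of all genes 2091 were higher and 2077 lower as reported, and 2486 higher and 1581 lower with the upper quartile. Under that scaling 9 members were lower, without ACAA2 and ACAD9, and 2 were higher, with ACADVL added, and the share of lower members still exceeded the background of 11.6%. The median log2 ratio was -0.83 for the members and -0.11 for all genes. Each of these ratios is the product of those in the other comparisons and is no separate measurement.

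**Figure D2:**
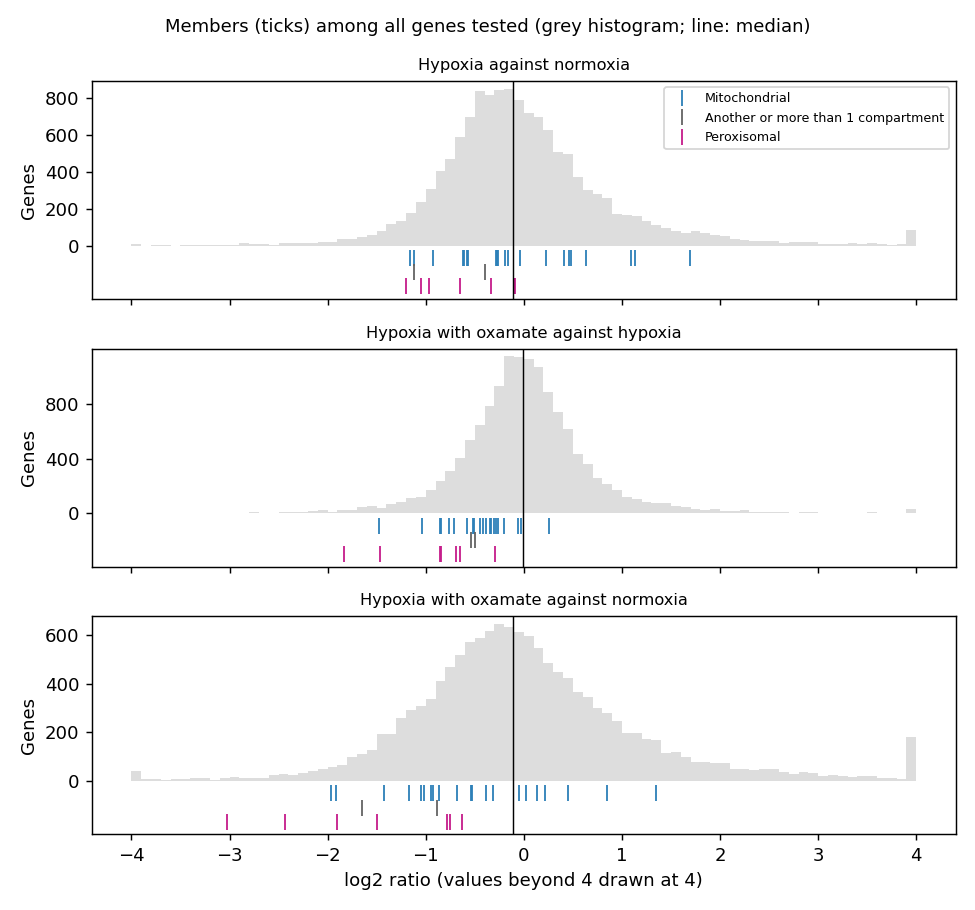
Log2 ratios of the members (ticks) under the histogram of all genes that passed the minimum, with a line at the median of all genes, for the 3 comparisons. The member ticks spread to both sides of the line in hypoxia against normoxia, and in hypoxia with oxamate against hypoxia 29 of 30 lie below 0.

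The promoter sequences of 4 members are shown because these members had the ratios farthest above and below 1 in hypoxia against normoxia among the members that passed the minimum and have an entry in the RefSeq promoter table, which holds 24 of the 33. Each run covers 250 bases before to 50 bases after the annotated start on GRCh38.p14, written 5′ to 3′ on the strand of the gene. Capitals mark ACGTG or GCGTG on either strand, the letters at the core of the element bound by hypoxia-inducible factors. BDH1 lies at chr3:197573294-197573593 on the minus strand and ACADVL at chr17:7216875-7217174 on the plus strand. ACAT1 lies at chr11:108121317-108121616 on the plus strand and ECI2 at chr6:4135526-4135825 on the minus strand.
BDH1: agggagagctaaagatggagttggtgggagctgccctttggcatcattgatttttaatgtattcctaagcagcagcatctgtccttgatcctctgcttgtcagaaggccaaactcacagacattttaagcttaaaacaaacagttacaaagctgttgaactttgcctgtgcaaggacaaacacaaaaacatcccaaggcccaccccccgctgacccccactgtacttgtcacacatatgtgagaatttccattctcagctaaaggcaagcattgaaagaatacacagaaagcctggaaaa
ACADVL: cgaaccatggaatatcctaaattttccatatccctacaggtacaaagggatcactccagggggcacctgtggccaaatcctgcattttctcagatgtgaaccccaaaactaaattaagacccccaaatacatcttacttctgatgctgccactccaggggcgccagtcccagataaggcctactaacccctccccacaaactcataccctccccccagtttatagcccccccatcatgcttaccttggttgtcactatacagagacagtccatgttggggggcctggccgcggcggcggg
ACAT1: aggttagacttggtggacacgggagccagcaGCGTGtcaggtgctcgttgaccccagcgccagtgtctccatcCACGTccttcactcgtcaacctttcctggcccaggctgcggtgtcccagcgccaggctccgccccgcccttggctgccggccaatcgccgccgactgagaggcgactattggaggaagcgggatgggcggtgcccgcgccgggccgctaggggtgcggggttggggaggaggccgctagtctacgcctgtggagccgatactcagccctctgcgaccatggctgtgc
ECI2: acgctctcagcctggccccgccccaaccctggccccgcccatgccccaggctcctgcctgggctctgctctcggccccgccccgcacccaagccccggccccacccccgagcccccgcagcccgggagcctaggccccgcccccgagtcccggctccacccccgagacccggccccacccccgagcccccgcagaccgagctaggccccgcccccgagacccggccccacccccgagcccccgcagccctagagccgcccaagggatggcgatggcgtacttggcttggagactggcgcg
The 2 members with higher levels hold neither motif in this window. ACAT1, with a lower level, holds GCGTG at position -219 from its RefSeq start and CACGT, which is ACGTG on the other strand, at position -177. The deposited gene span of ACAT1 begins at 108116695, upstream of the whole window, so its start there differs from that of RefSeq. ECI2, also with a lower level, holds neither motif. Over the 24 members with an entry, 4 promoters hold ACGTG and 12 hold GCGTG, and 12 hold either. Among 34796 distinct promoters of the table, 21.4% hold ACGTG, 36.4% hold GCGTG and 48.4% hold either, so the members' share is close to that of all promoters for either motif, higher for GCGTG and lower for ACGTG. No test was made of these shares. A match describes letters in this window and is not evidence of a bound site.

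Carnitine carries acyl groups across membranes, and 5 genes that load and unload it passed the minimum. In hypoxia against normoxia, 1 was counted as lower (CROT), 1 as higher (CPT1B) and 3 as neither. The background was 8.04% lower and 10.8% higher. CPT1A, the liver form of the rate-setting outer-membrane transferase, had 7.88 FPKM in hypoxia with oxamate, 11.8 FPKM in hypoxia and 14.6 FPKM in normoxia. It was 1.22-fold lower (1.15 to 1.29) in hypoxia than in normoxia and 1.5-fold lower (1.40 to 1.60) in hypoxia with oxamate than in hypoxia, so the oxamate library lay farther from hypoxia than hypoxia from normoxia. CPT2, the inner-membrane partner that rebuilds acyl-CoA, had 1.29 FPKM in hypoxia with oxamate, 1.73 FPKM in hypoxia and 2.10 FPKM in normoxia. Its order was the same as that of CPT1A, with smaller steps of 1.33-fold and 1.20-fold.

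The other CPT1 forms were near the lower end of what these libraries could measure. CPT1B had 0.646 FPKM in hypoxia with oxamate, 0.544 FPKM in hypoxia and 0.256 FPKM in normoxia, from 67, 62 and 27 fragments. The level was 2.15-fold higher in hypoxia than in normoxia, with an interval of 1.35 to 3.51 that reaches well below 2-fold. Of the exon bases of CPT1B, 66.4% are shared with the read-through gene CHKB-CPT1B, which had 42 fragments in hypoxia with oxamate, 64 in hypoxia and 20 in normoxia, so the reads of both cannot be fully told apart. CPT1C, the form of the endoplasmic reticulum in neurons, had 8 fragments in hypoxia with oxamate, 22 in hypoxia and 2 in normoxia, under the minimum in every library.

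CRAT, which trades short acyl groups between CoA and carnitine, had 2.24 FPKM in hypoxia with oxamate, 3.17 FPKM in hypoxia and 4.21 FPKM in normoxia, and was not counted in any comparison. CROT, the peroxisomal octanoyltransferase that exports medium-length chains, had 1.20 FPKM in hypoxia with oxamate, 2.18 FPKM in hypoxia and 4.55 FPKM in normoxia. CROT was 2.06-fold lower (1.79 to 2.38) in hypoxia than in normoxia and 3.75-fold lower (3.13 to 4.51) in hypoxia with oxamate than in normoxia. The hypoxia call of CROT is near the threshold and ended under scaling to total fragments, where its log2 ratio was -0.89. Among the carriers that passed the minimum, CROT had the lowest ratio in all 3 comparisons.

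The acyl-CoA dehydrogenases open each round of oxidation and divide the work by chain length, and they did not move together in hypoxia. Of 6 that passed the minimum, 3 had a higher and 3 a lower value in hypoxia than in normoxia. With oxamate all 6 had a lower value than in hypoxia, and none was past 2-fold.

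ACADVL, the dehydrogenase of very long chains on the inner membrane, had 108 FPKM in hypoxia with oxamate, 133 FPKM in hypoxia and 61.4 FPKM in normoxia. It rests on 13216 fragments in hypoxia with oxamate, 17832 in hypoxia and 7618 in normoxia, more than any other member in each library. Its level was 2.19-fold higher (2.13 to 2.25) in hypoxia than in normoxia, and 1.22-fold lower (1.19 to 1.25) in hypoxia with oxamate than in hypoxia. The gene lies on chromosome 17, at 7217125 to 7225266 on the plus strand of hg38. DLG4 lies on the opposite strand and shares 1.75% of ACADVL's exon bases, with 376 fragments in hypoxia with oxamate, 658 in hypoxia and 250 in normoxia, far fewer than ACADVL itself.

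ACADVL made up 33.2% of the summed mitochondrial level in hypoxia with oxamate, 31.7% in hypoxia and 14.2% in normoxia. The sum of the 22 mitochondrial members was 326 FPKM in hypoxia with oxamate, 420 FPKM in hypoxia and 434 FPKM in normoxia. Without ACADVL it was 218 FPKM in hypoxia with oxamate, 287 FPKM in hypoxia and 373 FPKM in normoxia, so the near-equal sums of hypoxia and normoxia rest on this 1 gene. Without ACADVL and ECHS1 it was 137 FPKM in hypoxia with oxamate, 187 FPKM in hypoxia and 217 FPKM in normoxia. Much of the difference between hypoxia and normoxia in the sum without ACADVL thus lies in ECHS1.

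**Figure D3:**
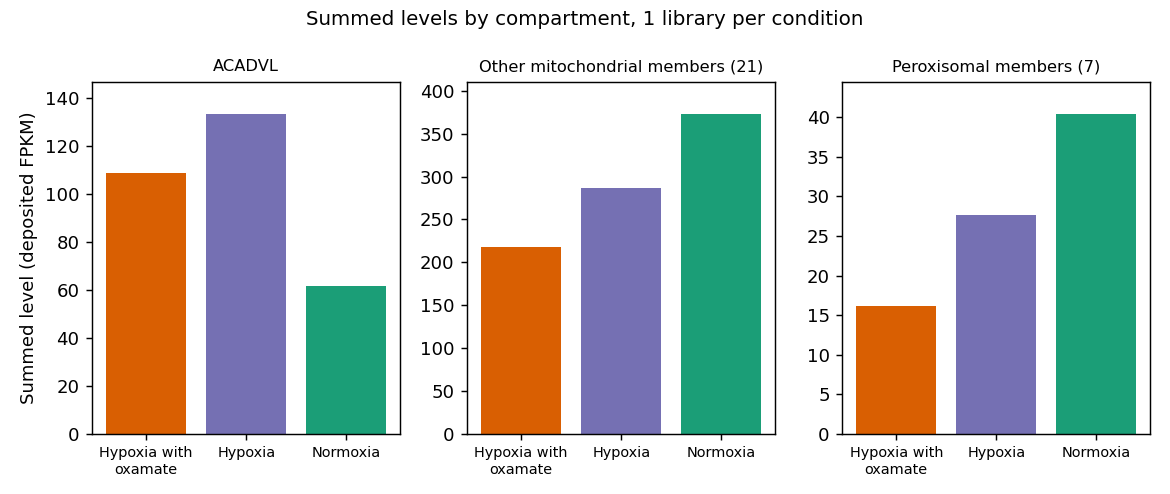
Summed FPKM of the mitochondrial members, split into ACADVL and the rest, and of the 7 peroxisomal members, for hypoxia with oxamate, hypoxia and normoxia. The mitochondrial sums without ACADVL are 218, 287 and 373 FPKM, and the peroxisomal sums are 16.1, 27.7 and 40.4 FPKM, in the order of the bars. Without ECHS1 as well, the mitochondrial sums are 137, 187 and 217 FPKM (not drawn).

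The short-chain and medium-chain enzymes differed in direction. ACADS, for short chains, had 5.34 FPKM in hypoxia with oxamate, 7.62 FPKM in hypoxia and 4.95 FPKM in normoxia, and was 1.56-fold higher (1.36 to 1.79) in hypoxia than in normoxia. ACADM, for medium chains, had 2.80 FPKM in hypoxia with oxamate, 3.68 FPKM in hypoxia and 4.15 FPKM in normoxia. The ACADM value was lowest with oxamate, while that of ACADS with oxamate lay near normoxia, at 1.1-fold (0.941 to 1.28). ACADL, the long-chain enzyme, was listed at 0 in all 3 libraries. A count of 0 allows up to 0.0230 FPKM in hypoxia with oxamate, 0.0209 FPKM in hypoxia and 0.0226 FPKM in normoxia.

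ACADSB, which acts on short branched chains such as those from isoleucine, had 4.47 FPKM in hypoxia with oxamate, 4.67 FPKM in hypoxia and 10.2 FPKM in normoxia. Unlike most members it had nearly the same level in both 1% oxygen libraries, with a ratio of 0.961 (0.868 to 1.06) in hypoxia with oxamate against hypoxia. The level was 2.17-fold lower (1.99 to 2.36) in hypoxia than in normoxia, and its log2 ratio of -1.12 became -0.96 under scaling to total fragments, which ends the call. ACADSB lies on chromosome 10, at 123008979 to 123058290 on the plus strand.

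The less studied dehydrogenases were split as well. ACAD9, which also helps to assemble respiratory complex I, had 3.23 FPKM in hypoxia with oxamate, 4.44 FPKM in hypoxia and 6.66 FPKM in normoxia. ACAD9 was 2.03-fold lower (1.88 to 2.19) in hypoxia with oxamate than in normoxia, a call that ended under scaling to total fragments with a log2 ratio of -0.93. ACAD10 had 2.33 FPKM in hypoxia with oxamate, 3.35 FPKM in hypoxia and 2.45 FPKM in normoxia, highest in hypoxia as for ACADS. ACAD11 had 33 fragments in hypoxia with oxamate, 45 in hypoxia and 24 in normoxia, under the minimum, and shares 83.8% of its exon bases with other genes.

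The electron transfer flavoprotein carries electrons away from these dehydrogenases, and all 3 of its genes were higher in hypoxia than in normoxia without reaching 2-fold. ETFA, the alpha subunit, had 25.3 FPKM in hypoxia with oxamate, 29.4 FPKM in hypoxia and 25.4 FPKM in normoxia. ETFB, the beta subunit of the same dimer, had 5.03 FPKM in hypoxia with oxamate, 8.32 FPKM in hypoxia and 6.35 FPKM in normoxia. The subunits thus had the same order in hypoxia and normoxia, at 1.17-fold (1.13 to 1.21) for ETFA and 1.32-fold (1.22 to 1.43) for ETFB. With oxamate against hypoxia their sizes differed, at 1.15-fold lower for ETFA and 1.64-fold lower (1.51 to 1.79) for ETFB, and the intervals do not overlap.

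ETFDH, the membrane enzyme that passes these electrons to ubiquinone, had 1.69 FPKM in hypoxia with oxamate, 1.73 FPKM in hypoxia and 1.25 FPKM in normoxia. It was 1.40-fold higher (1.27 to 1.53) in hypoxia than in normoxia, with no difference beyond counting error between the 1% oxygen libraries, at a ratio of 0.979 (0.899 to 1.07). Of the exon bases of ETFDH, 13.8% overlap other genes, among them PPID with 624 fragments in hypoxia with oxamate, 644 in hypoxia and 1141 in normoxia. The order of PPID between hypoxia and normoxia is thus opposite to that of ETFDH.

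The later steps of the mitochondrial cycle all had a lower value in hypoxia than in normoxia, apart from HADHA under other scalings, and a lower value with oxamate than without. None of the 5 genes was past 2-fold in hypoxia against normoxia. ECHS1, the short-chain enoyl-CoA hydratase, had 80.5 FPKM in hypoxia with oxamate, 99.9 FPKM in hypoxia and 156 FPKM in normoxia. ECHS1 was 1.54-fold lower (1.48 to 1.61) in hypoxia than in normoxia, and was the member with the highest level in normoxia.

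HADHA and HADHB, the subunits of the trifunctional protein that runs the last steps for long chains, lie head to head on chromosome 2. HADHA had 30.1 FPKM in hypoxia with oxamate, 38.3 FPKM in hypoxia and 39.9 FPKM in normoxia. HADHB had 14.5 FPKM in hypoxia with oxamate, 17.5 FPKM in hypoxia and 21.4 FPKM in normoxia. The pair moved little, and HADHA in hypoxia was within counting error of normoxia, at a ratio of 0.972 (0.933 to 1.01), which turned to above 1 under scaling to total fragments. With oxamate against hypoxia the subunits were close to each other, at 1.27-fold lower for HADHA and 1.20-fold lower for HADHB.

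HADH, the dehydrogenase for shorter hydroxyacyl chains, had the lowest ratio of the mitochondrial members in hypoxia with oxamate against normoxia. The level of HADH was 0.924 FPKM in hypoxia with oxamate, 1.91 FPKM in hypoxia and 3.67 FPKM in normoxia. HADH was 1.90-fold lower (1.73 to 2.09) in hypoxia than in normoxia, 2.05-fold lower (1.79 to 2.36) in hypoxia with oxamate than in hypoxia, and 3.91-fold lower (3.44 to 4.45) in hypoxia with oxamate than in normoxia. These steps were thus of like size, unlike those of ACAA2. The call of HADH in hypoxia with oxamate against hypoxia ended with 0.1 FPKM added, at a log2 ratio of -0.97. ACAA2, the mitochondrial thiolase that closes each round, had 11.02 FPKM in hypoxia with oxamate, 20.1 FPKM in hypoxia and 23.2 FPKM in normoxia. It was 1.14-fold lower in hypoxia than in normoxia, and 1.81-fold lower (1.70 to 1.93) in hypoxia with oxamate than in hypoxia. ACAA2 was 2.07-fold lower (1.94 to 2.21) in hypoxia with oxamate than in normoxia, a call that ended with total fragments, the upper quartile and a length trend removed, at log2 ratios of -0.96, -0.89 and -0.96.

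The auxiliary enzymes move or remove double bonds so that unsaturated chains can enter the cycle, and all 4 were lowest with oxamate and highest in normoxia. ECI1, the mitochondrial isomerase, had 10.9 FPKM in hypoxia with oxamate, 13.9 FPKM in hypoxia and 21.4 FPKM in normoxia. ECI2, an isomerase found in both mitochondria and peroxisomes, had 3.09 FPKM in hypoxia with oxamate, 4.50 FPKM in hypoxia and 9.87 FPKM in normoxia. ECI2 was 2.17-fold lower (1.96 to 2.40) in hypoxia than in normoxia and 3.14-fold lower (2.79 to 3.55) in hypoxia with oxamate than in normoxia. It lies on chromosome 6, at 4115693 to 4135597 on the minus strand, and shares 29.8% of its exon bases with other genes, of which C6orf201 had 3 fragments in hypoxia with oxamate, 8 in hypoxia and 11 in normoxia. The hypoxia call of ECI2 ended under scaling to total fragments, at a log2 ratio of -0.96.

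The reductases that act on dienoyl-CoA in each compartment had like ratios. DECR1, the mitochondrial form, had 6.86 FPKM in hypoxia with oxamate, 12.4 FPKM in hypoxia and 18.8 FPKM in normoxia. DECR2, the peroxisomal form, had 2.66 FPKM in hypoxia with oxamate, 4.82 FPKM in hypoxia and 7.63 FPKM in normoxia. Both were 1.80-fold lower in hypoxia with oxamate than in hypoxia, with intervals of 1.66 to 1.95 for DECR1 and 1.55 to 2.09 for DECR2. DECR1 was 2.69-fold lower and DECR2 2.82-fold lower in hypoxia with oxamate than in normoxia. Of the exon bases of DECR2, 14.1% overlap NME4, which had 946 fragments in hypoxia with oxamate, 2119 in hypoxia and 3171 in normoxia, so NME4 stood in the same order as DECR2.

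The ketone body genes in the list moved in opposite directions in hypoxia. ACAT1, the mitochondrial acetoacetyl-CoA thiolase that serves ketone body synthesis and breakdown, had 2.63 FPKM in hypoxia with oxamate, 4.49 FPKM in hypoxia and 10.1 FPKM in normoxia. It was 2.23-fold lower (2.04 to 2.44) in hypoxia than in normoxia, and was the only member whose whole interval lay past 2-fold on the lower side. The call ended with the upper quartile, at a log2 ratio of -0.99, where ACOX2 was the lower member left, at -1.03. ACAT1 in hypoxia with oxamate was 1.69-fold lower (1.49 to 1.92) than in hypoxia and 3.78-fold lower (3.38 to 4.24) than in normoxia. The gene lies on chromosome 11, at 108116695 to 108147603 on the plus strand.

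BDH1, which interconverts acetoacetate and hydroxybutyrate, was high in 1 library only, the hypoxia one. BDH1 had 0.268 FPKM in hypoxia with oxamate, 0.752 FPKM in hypoxia and 0.234 FPKM in normoxia, from 80, 247 and 71 fragments. Its level was 3.25-fold higher (2.49 to 4.30) in hypoxia than in normoxia, the highest ratio of any member that passed the minimum, and 2.79-fold lower (2.16 to 3.64) in hypoxia with oxamate than in hypoxia. The oxamate and normoxia libraries did not differ beyond counting error, at a ratio of 1.17 (0.836 to 1.63). Since both large ratios rest on the hypoxia library, they are not separate evidence. BDH1 lies on chromosome 3, at 197509783 to 197573323 on the minus strand.

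The 7 peroxisomal genes had a lower value in all 3 comparisons without exception under the reported scaling. Of all genes, 56.7% had a lower value in hypoxia against normoxia. The share was 51.2% in hypoxia with oxamate against hypoxia and 55.0% in hypoxia with oxamate against normoxia. The summed level of the 7 was 16.1 FPKM in hypoxia with oxamate, 27.7 FPKM in hypoxia and 40.4 FPKM in normoxia. HSD17B4 had the most fragments of the 7 in each library but adds only 6.07 FPKM to the normoxia sum. Its deposited length is 24901 bases, beside 10664 exon bases in GENCODE 29, so the sum depends on the gene model. The median log2 ratio of the 7 was -0.65 in hypoxia against normoxia, beside -0.19 for the 21 mitochondrial genes that passed the minimum. In hypoxia with oxamate against hypoxia it was -0.85 for the peroxisomal and -0.41 for the mitochondrial genes, and against normoxia -1.49 and -0.54. The difference between compartments was not tested, and HSD17B4 and ACOX3 turned to slightly above 1 in hypoxia against normoxia under scaling to total fragments.

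The oxidases that open the peroxisomal cycle differed in size. ACOX2, the oxidase of branched chains and bile acid intermediates, had 0.372 FPKM in hypoxia with oxamate, 1.35 FPKM in hypoxia and 3.12 FPKM in normoxia, from 36, 143 and 307 fragments. Its ratio with oxamate was the lowest of any member, 3.59-fold lower (2.48 to 5.33) than in hypoxia and 8.24-fold lower (5.83 to 12.0) than in normoxia. In hypoxia against normoxia ACOX2 was 2.30-fold lower (1.88 to 2.82). ACOX3, a further branched-chain oxidase, had 3.65 FPKM in hypoxia with oxamate, 5.78 FPKM in hypoxia and 6.28 FPKM in normoxia. Hypoxia and normoxia did not differ beyond counting error for ACOX3, at a ratio of 0.930 (0.831 to 1.04), while the oxamate value was 1.57-fold lower than in hypoxia.

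Both bifunctional enzymes that carry out the middle steps were lower with oxamate. EHHADH, the L-specific enzyme that also serves dicarboxylic acids, had 1.33 FPKM in hypoxia with oxamate, 3.70 FPKM in hypoxia and 7.32 FPKM in normoxia. EHHADH was 1.96-fold lower (1.75 to 2.20) in hypoxia than in normoxia, just short of the threshold, and 2.77-fold lower (2.31 to 3.34) in hypoxia with oxamate than in hypoxia. HSD17B4, the D-specific enzyme, had 3.46 FPKM in hypoxia with oxamate, 5.64 FPKM in hypoxia and 6.07 FPKM in normoxia. It was 1.07-fold lower in hypoxia than in normoxia and 1.62-fold lower (1.54 to 1.71) in hypoxia with oxamate than in hypoxia, smaller steps than those of EHHADH.

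ACAA1, the peroxisomal thiolase, had 3.44 FPKM in hypoxia with oxamate, 4.25 FPKM in hypoxia and 5.42 FPKM in normoxia. It moved least of the 7 with oxamate, at 1.23-fold lower than in hypoxia. Of its exon bases 21.2% overlap other genes, of which DLEC1 had at most 8 fragments in any library.

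**Figure D4:**
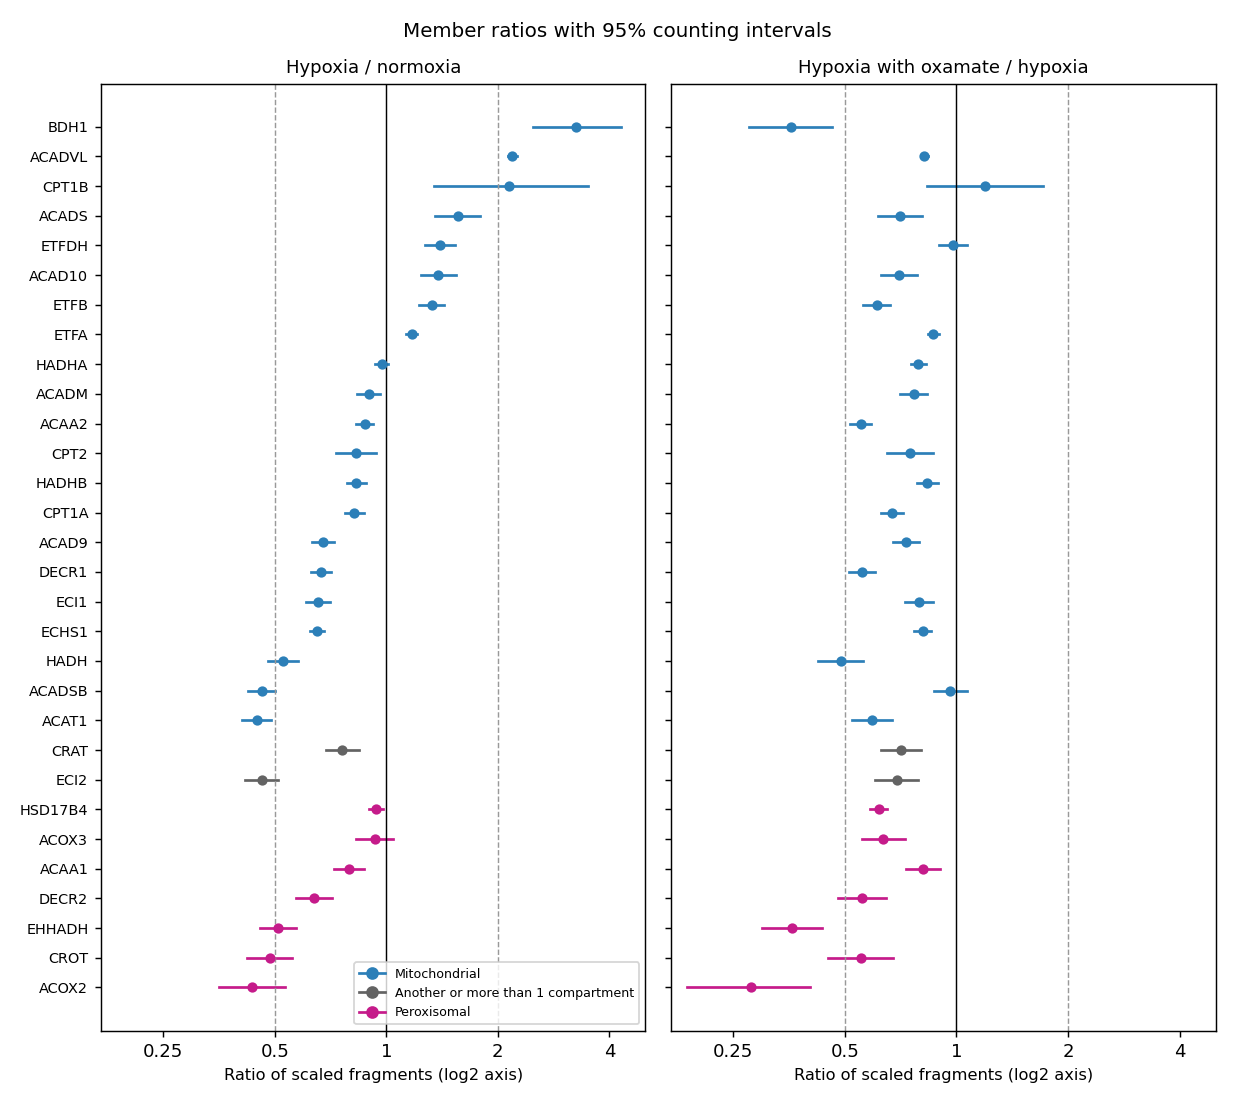
Ratio of each member that passed the minimum, on a log2 axis with its 95% counting interval, grouped by compartment. The panels show hypoxia against normoxia and hypoxia with oxamate against hypoxia, with dashed lines at the 2-fold threshold. BDH1, ACADVL and CPT1B lie past the upper line in hypoxia against normoxia, and ACOX2 lies lowest in hypoxia with oxamate against hypoxia.

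Several members have a neighbour transcribed away from them from a start close by, and some of these neighbours had ratios like those of the members while others did not. IKZF5 starts 162 bases from ACADSB and had 725 fragments in hypoxia with oxamate, 609 in hypoxia and 604 in normoxia. Its ratio in hypoxia against normoxia was 0.943 (0.841 to 1.06), beside 0.461 for ACADSB. BRAP starts 70 bases from ACAD10 and had a ratio of 0.960 (0.871 to 1.06), beside 1.38 (1.24 to 1.54) for ACAD10. Those ratios were closer to 1 than the members' own. PTPA, head to head with CRAT, had a ratio of 0.747 (0.708 to 0.789), beside 0.761 for CRAT, and MYD88, head to head with ACAA1, had 0.889 (0.793 to 0.998), beside 0.793 for ACAA1. NBN, whose start lies near that of DECR1, had 0.738 (0.698 to 0.781), beside 0.668 for DECR1. C4orf46, which starts near ETFDH and shares exon bases with it, had 0.575 (0.517 to 0.638), beside 1.40 for ETFDH, on the other side of 1. MAP3K13 starts 951 bases from EHHADH and had a ratio of 0.845 (0.768 to 0.929), beside 0.510 for EHHADH. In hypoxia with oxamate against hypoxia the ratio of MAP3K13 was 0.895 (0.807 to 0.992), beside 0.361 for EHHADH.

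Genes that gate or feed the pathway gave further values. Of the 3 genes that set malonyl-CoA, the inhibitor of CPT1, ACACB, the mitochondrial acetyl-CoA carboxylase, had 0.0736 FPKM in hypoxia with oxamate, 0.230 FPKM in hypoxia and 0.788 FPKM in normoxia. ACACB was 3.38-fold lower (2.67 to 4.32) in hypoxia than in normoxia and 3.11-fold lower (2.01 to 4.97) in hypoxia with oxamate than in hypoxia. Like CPT1A it was lowest with oxamate, with a larger ratio. ACACA, the cytosolic form, was 1.62-fold lower in hypoxia than in normoxia. MLYCD, which breaks malonyl-CoA down, did not differ beyond counting error there, at a ratio of 1.22 (0.968 to 1.55), and was 1.63-fold lower (1.26 to 2.11) in hypoxia with oxamate than in hypoxia.

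Among 17 genes of fatty acid uptake and activation, 13 passed the minimum in hypoxia against normoxia, with 2 higher, 1 lower and a median log2 ratio of -0.01. The background was 10.8% higher and 8.04% lower. ACSL5, a long-chain acyl-CoA synthetase, had 8.49 FPKM in hypoxia with oxamate, 10.6 FPKM in hypoxia and 0.179 FPKM in normoxia, from 888, 1220 and 19 fragments. It had the highest ratio of the list, 60.0-fold (38.3 to 100.1) in hypoxia against normoxia and 48.3-fold (30.8 to 80.7) in hypoxia with oxamate against normoxia. FABP1, the liver fatty acid binding protein, had 5.32 FPKM in hypoxia with oxamate, 24.8 FPKM in hypoxia and 12.2 FPKM in normoxia, so like BDH1 it stood highest in the hypoxia library. SLC27A2, a very long chain acyl-CoA synthetase, was 4.83-fold lower in hypoxia than in normoxia. With oxamate against hypoxia, 2 of 12 were lower (FABP1 and ACSM3) and none was higher, with a median log2 ratio of -0.50. The background there was 5.08% lower and 5.92% higher.

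Among 21 regulators of lipid oxidation, 2 were higher and 3 lower in hypoxia than in normoxia, with a median log2 ratio of -0.18. The background was 10.8% higher and 8.04% lower. PPARG, a lipid-sensing receptor, was 3.66-fold higher (3.47 to 3.87), and PRKAA2, a catalytic subunit of the energy sensor AMPK, was 3.95-fold higher (3.64 to 4.28). KLF15, a factor of fasting metabolism, was 8.21-fold lower (6.11 to 11.3). PPARGC1B, which coactivates oxidative genes, had 9 fragments in hypoxia and 159 in normoxia, an 18.9-fold lower level (9.71 to 42.1). With oxamate against hypoxia none of the 20 that passed the minimum was counted either way, beside 5.92% higher and 5.08% lower of all genes. Of the 20 values, 10 were above and 10 below 0, while 29 of 30 members were below 0.

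Other peroxisomal genes and other oxidation pathways mostly had lower values, with few past 2-fold. Of all genes, 56.7% had a lower value in hypoxia than in normoxia and 51.2% with oxamate than in hypoxia. Of 28 peroxisome partners that passed the minimum, 24 had a lower value in hypoxia than in normoxia, with a median log2 ratio of -0.42 and 2 counted as lower (PEX10 and PECR), a share below the background of 8.04%. With oxamate against hypoxia, 22 of 27 had a lower value, with a median of -0.24 and 2 counted as lower (PECR and PEX7). PECR, a peroxisomal enoyl-CoA reductase, had 1.78 FPKM in hypoxia with oxamate, 4.74 FPKM in hypoxia and 10.5 FPKM in normoxia, in the same order as ACOX2 and EHHADH. Of 15 genes of odd-chain and branched-chain oxidation that passed the minimum, 13 had a lower value in hypoxia than in normoxia and 12 a lower value with oxamate than in hypoxia, with medians of -0.44 and -0.54. Of these 15, 1 was counted as lower in each comparison, ALDH6A1 in hypoxia against normoxia and BCKDHB in hypoxia with oxamate against hypoxia, close to the backgrounds of 8.04% and 5.08%.

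The 16 listed subunits of the respiratory chain and of ATP synthase all had a lower value in hypoxia than in normoxia. Their median log2 ratio was -0.63, whereas all 3 electron transfer genes had a higher value. With oxamate against hypoxia, 9 of the 16 had a lower value, with a median of -0.04.

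Most hepatocyte markers had lower values, as most members did. In hypoxia against normoxia 8 had a lower value and 2 a higher one, TF at 3.38-fold and AHSG at 1.38-fold. With oxamate against hypoxia all 10 had a lower value. Of 10, 5 were counted as lower and 1 as higher in hypoxia than in normoxia, and 6 as lower in hypoxia with oxamate than in hypoxia. The background was 8.04% lower and 10.8% higher in the first comparison, and 5.08% lower in the second. The median log2 ratios of the 10 markers were -0.81 and -1.21, farther from 0 than those of the members. Their summed level was 3268 FPKM in hypoxia with oxamate, 5523 FPKM in hypoxia and 8546 FPKM in normoxia. ALB alone gave 1963, 2578 and 5362 FPKM of these sums, in the same order. The part of this shift in the members' values was not tested.

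Markers of other cell types were low, apart from those of cholangiocytes. The 5 blood markers summed to 34.5 FPKM in hypoxia with oxamate, 18.4 FPKM in hypoxia and 21.9 FPKM in normoxia, nearly all from LYZ, with CD3E and HBB at 0 in every library. The 4 endothelial markers summed to 2.56 FPKM in hypoxia with oxamate, 1.07 FPKM in hypoxia and 0.179 FPKM in normoxia, nearly all from PECAM1, with KDR at 0. PECAM1 was 6.52-fold higher (4.51 to 9.69) in hypoxia than in normoxia and 2.40-fold higher (2.05 to 2.82) in hypoxia with oxamate than in hypoxia. The 5 fibroblast markers summed to 0.910 FPKM in hypoxia with oxamate, 2.73 FPKM in hypoxia and 2.04 FPKM in normoxia, with DCN and ACTA2 at 0. The 4 cholangiocyte markers summed to 357 FPKM in hypoxia with oxamate, 325 FPKM in hypoxia and 499 FPKM in normoxia. Within that sum SOX9 had 81.4 FPKM in hypoxia with oxamate, 34.04 FPKM in hypoxia and 52.1 FPKM in normoxia, 2.40-fold higher (2.31 to 2.50) with oxamate than in hypoxia, while the ratios of KRT19 and EPCAM there were 0.949 and 0.961. The part of these markers in the members' values was not tested.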

How the data were processed

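Polyadenylated RNA of 3 cultures was measured, with 1 library per condition, grouped by the labels. The authors deposited 1 value per gene and library for 61533 genes. The table headers name no unit, and the deposited values were read as FPKM because each value times its gene length is a whole multiple of 1 constant per library, within 0.01 for all values. Per the submitters' processing notes, HISAT2 2.0.5, StringTie 1.3.3b, featureCounts 1.5.0-p3 and edgeR 3.22.5 were among the tools and hg38 was the build. The sources used here give neither the role of each tool nor a strand setting, so reads of overlapping genes cannot be told apart.

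Whole fragments were recovered from those values and used for all ratios, with scipy 1.17.1, numpy 2.4.6 and pandas 2.3.3 under Python 3.11.15. The planned comparisons had assumed fragments or their equivalent, which this provides. Libraries were scaled by trimmed mean of M values computed on genes with a sum of at least 10 fragments, with factors of 1.01 for hypoxia with oxamate, 1.05 for hypoxia and 0.944 for normoxia. Ratios carry exact conditional binomial (Clopper-Pearson) 95% intervals. List medians used a prior count of 0.5 fragments. A count of 0 was read as allowing up to 3 fragments. Exon overlap and neighbours within 2000 bases came from GENCODE 29. Promoters came from RefSeq on GRCh38.p14, and members with no entry there were not searched. The deposited length of some members far exceeds their exon bases in GENCODE 29, such as 23865 beside 4493 for ETFDH. FPKM levels of different members, and their sums, therefore depend on the gene model. The shares of overlapping exon bases refer to GENCODE 29 and may differ for the deposited gene models. The computation was tested on simulated data. Every member is named, and of each related list at most 4 genes per comparison, taken from the 2 highest and 2 lowest ratios among genes that passed the minimum. Marker genes of other cell types, and ALB, were named after their values were seen. The members and lists were chosen with earlier results of these data known.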

Additional observations from a re-analysis of the deposited data

How the results depend on the processing

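No member counted as higher or lower changed direction under any alternative run. In hypoxia against normoxia, the 5 lower members became 2 with total-fragment scaling, 1 with upper-quartile scaling, 1 with FPKM plus 1, 10 at 1.5-fold and 1 under a rule that the whole interval lie past 2-fold; the 3 higher members became 1 with FPKM plus 1. In hypoxia with oxamate against hypoxia, the 4 lower members became 1 with FPKM plus 1 and 12 at 1.5-fold. In hypoxia with oxamate against normoxia, the 11 lower members became 19 at 1.5-fold; the 1 higher member became 2 with upper-quartile scaling, 2 with no minimum and 2 at 1.5-fold, and 0 with FPKM plus 1, with the whole-interval rule and without members sharing 10% or more of exon bases. Adding 1 FPKM shrinks ratios of genes with levels near 1 FPKM by construction. In hypoxia against normoxia, the background of lower genes was 5.54% with total fragments, 5.43% with the upper quartile, 4.29% with FPKM plus 1 and 4.91% with the whole-interval rule, so the excess of lower members was lost under the last 3. The lower members in hypoxia with oxamate against normoxia became 9 with either scaling, without ACAA2 and ACAD9. The background at 1.5-fold was 18.7% higher and 21.9% lower in hypoxia against normoxia, 13.7% and 13.8% in hypoxia with oxamate against hypoxia, and 24.3% and 28.7% in hypoxia with oxamate against normoxia. Over all alternatives the members' median log2 ratio ran from -0.42 to -0.11, from -0.58 to -0.41 and from -0.87 to -0.67 in these comparisons. Removal of a base composition trend was chosen after seeing the data. No paired analysis was possible because there is 1 library per condition. With no replicates, the spread between cultures is unknown, and genes with under about 50 fragments, such as CPT1C and ACAD11, cannot be compared at this depth.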
